A study of Mus musculus with 9 samples.

Results

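The genes described here are 10 genes of the circadian clock, Per1, Per2, Per3, Cry1, Cry2, Arntl, Clock, Nr1d1, Nr1d2 and Dbp, measured in mouse striatum after 2 dopamine toxins. They were chosen by name, and every probe set with 1 of these symbols as its single annotated gene was read on every array. Each probe set reports 1 transcript region through several short probes that are read together, and 16 of the 22690 probe sets on the array met the rule, for 10 of the 12393 genes with such a symbol. The METH group was 3 mice injected with methamphetamine, a psychostimulant that empties dopamine from nerve terminals, and the MPTP group was 3 mice injected with MPTP, a compound turned in the brain into a poison of dopamine neurons. The Control group was 3 mice injected with saline. All 9 were C57BL/6J males aged 56 days, kept under 12 h of light and 12 h of dark, and the left and right striatum of each gave RNA for 1 single-colour Affymetrix array. Both toxins serve as mouse models of Parkinson's disease. Doses, injection schedules, the delay before dissection and the hour of dissection are missing from the labels used here, so the part of the hour in these signals was not tested.

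The clock is a feedback loop that runs in nearly every cell. CLOCK and its partner BMAL1, which Arntl encodes, switch on the Per, Cry, Nr1d and Dbp genes through short DNA elements called E-boxes. PER and CRY proteins then hold CLOCK and BMAL1 back, NR1D1 and NR1D2 (also called REV-ERB alpha and beta) repress Arntl through ROR elements, and DBP activates genes that hold D-boxes. Most of these transcripts therefore cycle over the day, with Arntl high when Dbp and Nr1d1 are low. The striatum keeps such a rhythm under the lead of the suprachiasmatic nucleus, and in rats dopamine signalling has been tied to the rhythm of PER2 in the dorsal striatum.

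The windows around the start sites carry some of these elements, and 4 are shown that between them hold E-boxes, D-boxes and the core of a ROR element. RefSeq start sites of GRCm38.p6 gave 13 windows for 9 of the 10 genes, each running from 250 bases before to 50 bases after a start. The letters searched on both strands were CACGTG for the E-box, CACGTT for a variant called the E'-box, TTATGTAA for the D-box, TAGGTCA or TGGGTCA for the core of the ROR element, and TGACGTCA for the cyclic AMP response element, and no motif's letters overlap another's in the matches reported. Capitals mark the matches in Per1 (chr11:69098699-69098998, plus strand, an E-box starting at base -166 from the start site), Cry1 (chr10:85185005-85185304, minus strand, an E-box at -60 and an E'-box at -79), Per3 (chr4:151044616-151044915, minus strand, D-boxes at -205 and -158) and Arntl (chr7:113207261-113207560, plus strand, a ROR core at 31).
Per1: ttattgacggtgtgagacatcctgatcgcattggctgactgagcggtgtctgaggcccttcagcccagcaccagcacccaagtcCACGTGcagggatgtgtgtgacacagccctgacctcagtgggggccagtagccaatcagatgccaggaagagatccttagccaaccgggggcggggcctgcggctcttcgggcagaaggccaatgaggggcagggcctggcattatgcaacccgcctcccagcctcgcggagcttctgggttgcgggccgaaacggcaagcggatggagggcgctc
Cry1: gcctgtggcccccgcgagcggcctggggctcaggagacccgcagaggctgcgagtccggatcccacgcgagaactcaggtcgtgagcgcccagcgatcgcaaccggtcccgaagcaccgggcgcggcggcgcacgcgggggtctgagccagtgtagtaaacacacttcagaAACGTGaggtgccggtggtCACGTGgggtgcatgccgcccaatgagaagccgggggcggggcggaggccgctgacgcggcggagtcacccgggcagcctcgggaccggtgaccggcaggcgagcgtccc
Per3: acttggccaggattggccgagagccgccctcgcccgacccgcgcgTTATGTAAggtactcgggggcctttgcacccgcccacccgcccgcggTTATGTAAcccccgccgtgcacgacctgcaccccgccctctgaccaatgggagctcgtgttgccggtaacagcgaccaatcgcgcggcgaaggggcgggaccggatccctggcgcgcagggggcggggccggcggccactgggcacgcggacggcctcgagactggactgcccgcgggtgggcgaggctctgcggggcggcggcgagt
Arntl: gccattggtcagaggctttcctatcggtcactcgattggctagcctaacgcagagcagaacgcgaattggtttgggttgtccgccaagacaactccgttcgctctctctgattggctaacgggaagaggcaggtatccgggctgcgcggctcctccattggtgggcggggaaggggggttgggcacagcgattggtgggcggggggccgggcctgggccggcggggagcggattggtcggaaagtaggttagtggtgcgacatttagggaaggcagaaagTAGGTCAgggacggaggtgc
Cry2 held an E'-box at -166 and Nr1d1 an E'-box at -28. None of the letters occurred in the windows of Dbp, Nr1d2 and Clock, in the other Per1 window or in the other Arntl window. The cyclic AMP response element occurred in no clock gene window. Per2 had no window and was not searched. Among all 32851 windows of this kind, 7.15% held the E-box, 4.68% the E'-box, 0.938% the D-box, 6.45% a ROR core and 1.79% the cyclic AMP response element. These matches describe the letters of the windows and say nothing about binding in the striatum.

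Every array had been scaled to the same trimmed mean, and Spearman correlations between arrays were 0.97 to 0.985. Signals are linear intensities, comparable for 1 probe set across arrays but not between probe sets. Of the 11 gene symbols listed for striatal spiny neurons, which include both Drd1 and Drd1a, 7 were annotated and all 7 passed the filter on dim probe sets. Their summed signal was 172069 to 183866 on the METH arrays, 155768 to 182513.5 on the MPTP arrays and 175158.5 to 195922 on the Control arrays. None of the 5 annotated markers of the suprachiasmatic nucleus (Avp, Vip, Six6, Lhx1 and Prok2) passed the filter. In bulk tissue, fewer cells of a type and less RNA per cell cannot be told apart.

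No clock gene passed the test in any comparison. Of the 16 clock probe sets, 14 passed the filter and were tested among 13584 probe sets with limma, and 0 of 14 passed in METH against Control, in MPTP against Control, in METH against MPTP or in the test for any difference among the 3 groups (adjusted p under 0.05). The share called among all probe sets tested was 0.0147%, 0.0147%, 0% and 0.0147% in these 4 tests. Those calls were both probe sets of Gfap, the intermediate filament gene of astrocytes, whose signal on the brightest probe set was 13823, 10957 and 12077 on the METH arrays, 13596, 11350.3 and 12025 on the MPTP arrays and 5403, 5020.2 and 6436 on the Control arrays. At an unadjusted p under 0.05, limma called 1 of 14 clock probe sets in METH against Control, 0 of 14 in MPTP against Control, 1 of 14 in METH against MPTP and 1 of 14 in the test for any difference, against 8.77%, 5.52%, 2.8% and 5.76% of all probe sets tested. The groups did not overlap for 1 of 14, 2 of 14 and 1 of 14 clock probe sets in the 3 pairwise comparisons, against 13.7%, 11.1% and 7.25% of all probe sets tested, so the counts read against that background are no result about the clock genes. With 1 array left out, which can only make overlap rarer, 1 to 4, 2 to 4 and 1 to 4 of 14 did not overlap, against 13.7% to 26.3%, 11.1% to 22.5% and 7.25% to 17.9% of all probe sets tested. METH against Control had 4 without Control 2 and 3 without METH 1, MPTP against Control had 4 without MPTP 1, and METH against MPTP had 4 without METH 1 and 4 without METH 3. The 95% intervals of the 42 pairwise differences lay within 0.546-fold and 1.61-fold, and 40 of them included no difference. The log2 differences ran from -0.26 to 0.32 in METH against Control (adjusted p = 0.535 to 0.985), from -0.31 to 0.11 in MPTP against Control (adjusted p = 0.875 to 0.996) and from -0.06 to 0.37 in METH against MPTP (adjusted p = 1 for each).

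**Figure D1:**
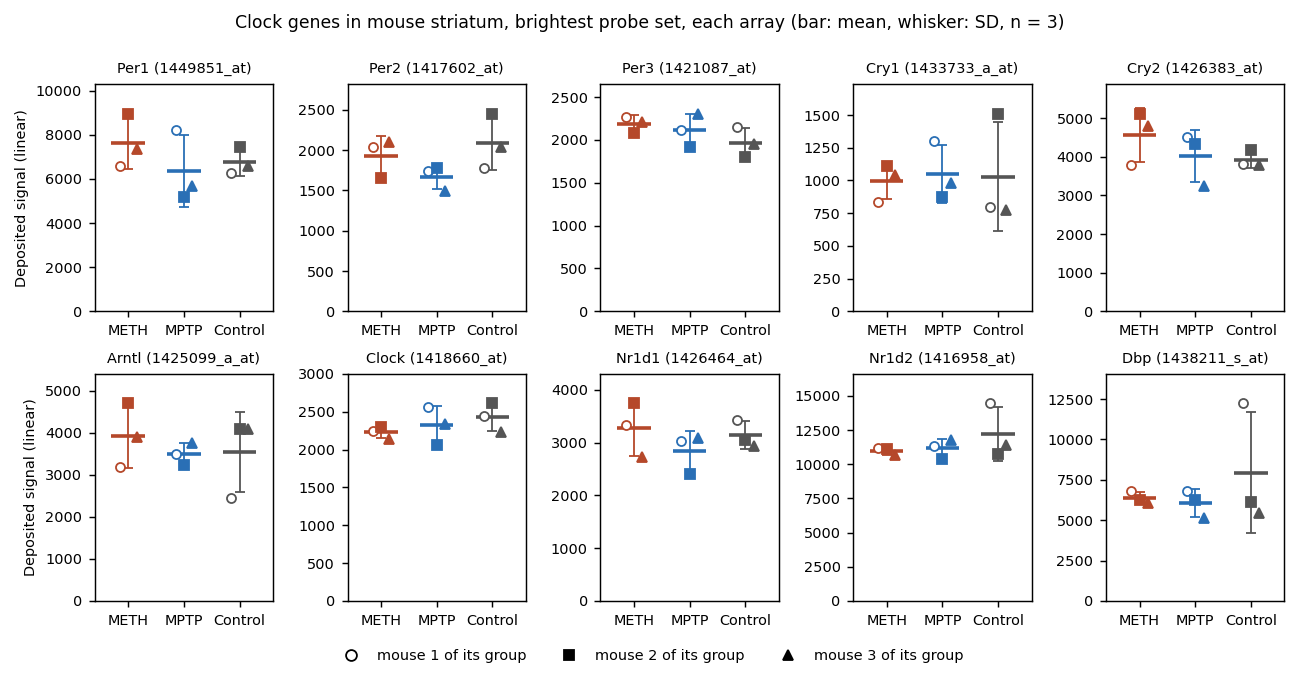
Deposited signal (linear intensity, axis from 0) of the brightest probe set of each clock gene on every array, for METH, MPTP and Control mice; the bar is the mean and the whisker the SD of 3 arrays. The arrays of the groups overlap in every panel but for MPTP and Control in Per2, and Control 1 stands alone in Dbp at 12234 against 5152 to 6827 on the other 8 arrays.

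The period genes Per1, Per2 and Per3 encode the PER proteins of the repressor complex. Per1, which light, hormones and neuronal activity also switch on quickly, had signals of 6599, 8949.5 and 7354 in METH mice, 8205, 5164 and 5659 in MPTP mice and 6244, 7464 and 6590.4 in Control mice. Its highest value was METH 2 and its lowest MPTP 2, and all 3 groups overlapped. The log2 difference was 0.17 ± 0.18 (SE) in METH against Control (adjusted p = 0.811), -0.12 ± 0.18 in MPTP against Control (adjusted p = 0.962) and 0.29 ± 0.18 in METH against MPTP (adjusted p = 1). With each array left out in turn these differences ran from 0.05 to 0.27, from -0.32 to 0.01 (the sign turned without MPTP 2) and from 0.15 to 0.49.

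Per2, the period gene whose striatal rhythm has been tied to dopamine in rats, was read by a pair of probe sets that did not move together. The brighter, 1417602_at, gave 2034, 1653 and 2103 in METH mice, 1745, 1775 and 1496 in MPTP mice and 1777, 2451 and 2040.2 in Control mice. All 3 MPTP arrays lay below all 3 Control arrays, the nearest being MPTP 2 and Control 1, while METH overlapped both. The log2 difference of this probe set was -0.31 ± 0.14 in MPTP against Control (adjusted p = 0.875) and -0.11 ± 0.14 in METH against Control (adjusted p = 0.847). With each array left out in turn the MPTP difference ran from -0.42 to -0.19 (without Control 2) and the METH difference from -0.22 to 0.01, its sign turning without Control 2. The dimmer, 1417603_at, gave 1248, 1345 and 1231 in METH mice, 1017, 889.7 and 1067 in MPTP mice and 966, 1208 and 914 in Control mice. Here the METH arrays lay above every MPTP and every Control array, and MPTP and Control overlapped. Its log2 difference was 0.32 ± 0.12 in METH against Control (adjusted p = 0.535), 0.37 ± 0.12 in METH against MPTP (adjusted p = 1) and -0.05 ± 0.12 in MPTP against Control (adjusted p = 0.979). Leaving out each array gave 0.24 to 0.44 and 0.29 to 0.42 for the comparisons of METH and -0.13 to 0.07 for MPTP against Control, where the sign turned without Control 2 and without MPTP 2. This was the clock probe set with the smallest p in both comparisons of METH, and none of its differences passed the test over all probe sets. The probe sets of Per2 had a Pearson correlation of 0.218 and a Spearman correlation of 0.0167 over the 9 arrays (exact permutation p = 0.573 and 0.982), and the order of the groups differed between them.

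Per3, a period gene that the loop can run without, had signals of 2269, 2077 and 2213 in METH mice, 2114, 1913 and 2304 in MPTP mice and 2150.5, 1802 and 1946 in Control mice on its brightest probe set. The groups overlapped, and its highest array was only 1.28 times its lowest. In METH against Control its log2 difference was 0.16 ± 0.11 (adjusted p = 0.704) and in MPTP against Control 0.10 ± 0.11 (adjusted p = 0.942), or 0.09 to 0.22 and 0.04 to 0.17 with each array left out. The other Per3 probe sets fell below the filter, at a signal of 741, and were not tested. Of these, 1460662_at had 404.3 to 943.7 over the 9 arrays, with the groups overlapping. The dimmest, 1421086_at, had 209, 296 and 317 in METH mice, 97.2, 62.4 and 181 in MPTP mice and 81.9, 132 and 12.9 in Control mice. Its METH arrays all lay above the other 6, at signals where arrays of 1 group differ widely, as Control 2 and Control 3 do at 132.3 and 12.9.

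The cryptochromes Cry1 and Cry2 are the stronger repressors of the PER and CRY complex. Cry1 had signals of 838, 1114 and 1045 in METH mice, 1299, 873 and 980 in MPTP mice and 797, 1509.8 and 778 in Control mice. Control 2 was the highest and Control 3 the lowest of all 9 arrays, so the spread inside the Control group covered both toxin groups. Its log2 difference was 0.02 ± 0.25 in METH against Control and 0.08 ± 0.25 in MPTP against Control (adjusted p = 0.985 and 0.982). Without Control 2 the differences were 0.33 and 0.40. The signs turned without Control 1, to -0.13 and -0.06, and without Control 3, to -0.15 and -0.08, and 1 of them turned without METH 2 (-0.06), METH 3 (-0.02) or MPTP 1 (-0.08). Cry2 had 3778, 5110.4 and 4800.5 in METH mice, 4506, 4320 and 3252 in MPTP mice and 3815, 4167 and 3783 in Control mice. METH 2 and METH 3 were its highest arrays, and METH 1 lay below all 3 Control arrays. The difference on the log2 scale was 0.21 ± 0.15 in METH against Control (adjusted p = 0.715), 0.02 ± 0.15 in MPTP against Control (adjusted p = 0.994) and 0.18 ± 0.15 in METH against MPTP (adjusted p = 1). With each array left out these ran from 0.12 to 0.34, from -0.06 to 0.17 and from 0.04 to 0.31, and the MPTP against Control sign turned without MPTP 1, MPTP 2 and Control 3.

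Arntl and Clock encode the activators of the loop. Arntl had signals of 3192, 4703 and 3904 in METH mice, 3500.3, 3248 and 3759 in MPTP mice and 2441, 4088 and 4085 in Control mice. Control 1 was its lowest array and METH 2 its highest, and the groups overlapped. Its log2 difference was 0.17 ± 0.21 in METH against Control (adjusted p = 0.831) and 0.02 ± 0.21 in MPTP against Control (adjusted p = 0.996). Both signs turned without Control 1, to -0.07 for METH and -0.23 for MPTP, and the MPTP sign also without MPTP 3 (-0.03). Over all arrays left out the differences ran up to 0.32 for METH and 0.15 for MPTP.

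Clock, the histone acetyltransferase partner of BMAL1, varied least of the 10 genes on its brightest probe set, 1418660_at. Its signals were 2251, 2301 and 2144 in METH mice, 2561, 2059 and 2337 in MPTP mice and 2439, 2609 and 2233 in Control mice, a span of 1.27 times between the lowest and the highest array. On the log2 scale it differed by -0.12 ± 0.11 in METH against Control (adjusted p = 0.768) and -0.07 ± 0.11 in MPTP against Control (adjusted p = 0.965), or -0.18 to -0.06 and -0.14 to 0.01 with each array left out, the MPTP sign turning without MPTP 2. The second Clock probe set, 1418659_at, gave 1756, 1917 and 2608 in METH mice, 2185, 2052 and 2199.6 in MPTP mice and 2249.5, 2458 and 2719.9 in Control mice. Its MPTP arrays all lay below its Control arrays, and METH 3 overlapped Control. The difference on the log2 scale was -0.26 ± 0.15 in METH against Control (adjusted p = 0.648) and -0.20 ± 0.15 in MPTP against Control (adjusted p = 0.909). With each array left out the METH difference ran from -0.43 without METH 3 to -0.14 without METH 1, and the MPTP difference from -0.27 to -0.13. Both Clock probe sets were lower in METH and in MPTP than in Control, 4 differences that did not pass and that share the Control arrays.

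Nr1d1 and Nr1d2 encode the nuclear receptors that repress Arntl. Nr1d1 had signals of 3341, 3740 and 2721 in METH mice, 3034, 2404 and 3093 in MPTP mice and 3432, 3056 and 2926 in Control mice. The groups overlapped, with METH 2 the highest and MPTP 2 the lowest array. The log2 difference was 0.05 ± 0.14 in METH against Control (adjusted p = 0.934) and -0.15 ± 0.14 in MPTP against Control (adjusted p = 0.942), or -0.05 to 0.18 and -0.21 to -0.03 with each array left out, the METH sign turning without METH 2. Nr1d2 had 11188, 11116 and 10665 in METH mice, 11344, 10376 and 11768 in MPTP mice and 14446, 10736 and 11409 in Control mice on its brighter probe set. The 8 arrays other than Control 1 lay between 10376 and 11768, and Control 1 lay above them all. On the log2 scale the difference was -0.14 ± 0.12 in METH against Control (adjusted p = 0.754) and -0.12 ± 0.12 in MPTP against Control (adjusted p = 0.942), and without Control 1 it was -0.01 and 0.01. Without Control 2 it was -0.22 and -0.20. The dimmer Nr1d2 probe set, 1416959_at, had the opposite sign in both comparisons. It gave 2323, 2835 and 2849 in METH mice, 2301, 2727 and 2576 in MPTP mice and 2409, 2469 and 2184 in Control mice, a log2 difference of 0.18 ± 0.11 for METH and 0.11 ± 0.11 for MPTP (adjusted p = 0.687 and 0.942), and Control 1 lay within the other arrays. Leaving out each array gave 0.12 to 0.27 and 0.05 to 0.17.

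Dbp encodes the output factor that acts at D-boxes and is among the most strongly cycling transcripts of mouse tissues. Its brighter probe set, 1438211_s_at, gave 6827, 6253 and 6056 in METH mice, 6809, 6257 and 5152 in MPTP mice and 12234, 6120.3 and 5426 in Control mice. The means were 6378 ± 400.4, 6073 ± 844 and 7927 ± 3746 in METH, MPTP and Control (SD, n = 3 each), and the wide Control spread came from Control 1 alone. The log2 difference was -0.22 ± 0.26 in METH against Control (adjusted p = 0.831) and -0.30 ± 0.26 in MPTP against Control (adjusted p = 0.932). Without Control 1 both signs turned, to 0.14 for METH and 0.07 for MPTP, and without Control 3 they were -0.44 and -0.52. The second Dbp probe set, 1418174_at, gave 5498, 6131 and 4749 in METH mice, 5407, 4988 and 5011 in MPTP mice and 7763, 6109 and 4627 in Control mice. Control 1 was again the highest array, and Control 3 the lowest. On this probe set the log2 difference was -0.15 ± 0.17 for METH and -0.23 ± 0.17 for MPTP (adjusted p = 0.822 and 0.916), and without Control 1 it was 0.03 and -0.05, against -0.34 and -0.42 without Control 3. The pair of Dbp probe sets had a Pearson correlation of 0.839 over the 9 arrays (exact permutation p = 0.0133, adjusted p = 0.0531 over the 4 genes with such a pair; Spearman 0.617, p = 0.0857), which was 0.472 without Control 1 and 0.466 without the 2 arrays farthest from the median. For Clock the Pearson and Spearman correlations between probe sets were 0.0918 and 0.0333, and for Nr1d2 they were -0.344 and -0.583 (exact permutation p = 0.81, 0.948, 0.414 and 0.108).

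**Figure D2:**
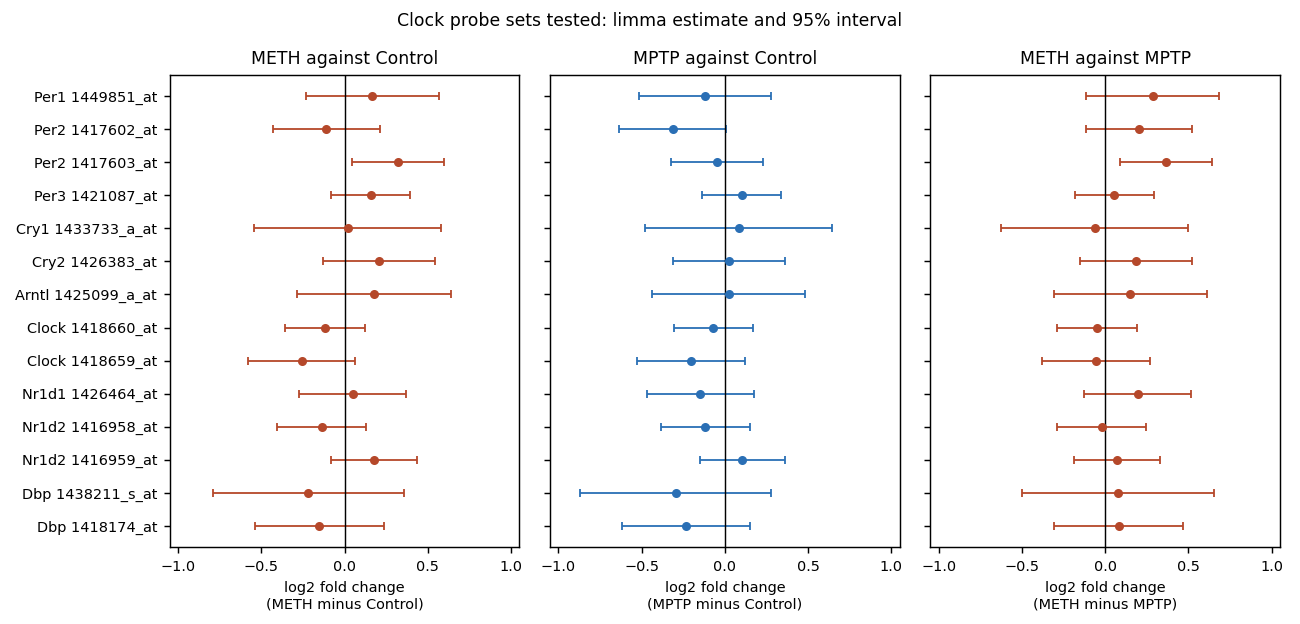
Log2 differences of the 14 clock probe sets tested, as limma estimates (points) with 95% intervals (bars), in METH against Control, MPTP against Control and METH against MPTP; positive means higher in the group named first. The intervals of 40 of the 42 differences include 0, and the exceptions are those of the dimmer Per2 probe set in METH against Control and in METH against MPTP.

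Counted by gene on the brightest probe set, 6 clock genes were higher and 4 lower in METH than in Control, with a median log2 difference of 0.03, and 4 were higher and 6 lower in MPTP than in Control, with a median of -0.09. In METH against MPTP 7 were higher and 3 lower, with a median of 0.12. Among all 7964 genes tested, 4006 were higher and 3958 lower for METH against Control (median 9e-04), 4123 and 3841 for MPTP against Control (0.0064), and 3751 and 4213 for METH against MPTP (-0.008). The METH median changed sign without METH 2 (-0.03) and without Control 3 (-0.06), and under quantile normalization (-0.02), cyclic loess (-0.02) and centring on array medians (-0.03). Leaving out each array in turn gave 4 (without METH 2) to 7 higher in METH against Control, 2 to 5 higher in MPTP against Control (2 without MPTP 1 and 2 without Control 3) and 6 to 9 higher in METH against MPTP. The medians stayed between -0.14 and -0.0085 for MPTP against Control and between 0.08 and 0.16 for METH against MPTP. With arrays centred on their medians 4 clock genes were higher and 6 lower for METH, beside 2806 and 5158 of all genes, and 2 were higher and 8 lower for MPTP, beside 3238 and 4726 of all genes. Among arrays, METH 2 was the highest for 4 of 10 clock genes and for 18% of all genes tested, MPTP 2 was the lowest for 4 of 10 and for 8.86% of all, and MPTP 3 was the lowest for 3 of 10 and for 11.6% of all.

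Several arrays lay at the edge of the range for more than 1 clock gene. Of the 14 tested clock probe sets, METH 2 was the highest array for 5 and the lowest for 0, MPTP 2 the highest for 0 and the lowest for 5, Control 1 the highest for 3 and the lowest for 1, Control 2 the highest for 3 and the lowest for 1, and Control 3 the highest for 1 and the lowest for 3. Of all probe sets tested, these arrays were in the same order the highest for 18.3%, 9.28%, 15.3%, 13.8% and 7.12%. They were the lowest for 15.7%, 9.31%, 17.3%, 13.3% and 8.64%. The median absolute log2 deviation from the mean of the other 8 arrays, over the tested clock probe sets, was 0.203 for METH 2. It was 0.159 or less for the other METH arrays and the MPTP arrays, and 0.165, 0.166 and 0.174 for Control 1, Control 2 and Control 3. Over all probe sets tested it was 0.156 for METH 2 and 0.122 or less for the other METH arrays and the MPTP arrays. For Control 1, Control 2 and Control 3 it was 0.149, 0.135 and 0.105. Over the tested clock probe sets, the highest array exceeded the lowest by 1.27 times in Clock up to 2.37 times in Dbp, where the median of all probe sets tested was 1.42 times and the 90th percentile 1.93 times. The widest of these gaps, in Dbp, was set by Control 1. On that array Dbp was 2.01 times the geometric mean of the other 8 arrays, or 1.47 times on its second probe set, and Nr1d2 was 1.31 times. Arntl was 0.645 times that mean. These 4 probe sets lay outside the range of the other 8 arrays, while those of Per1, Per2, Cry1, Cry2, Clock and Nr1d1, the second Nr1d2 probe set and all 3 of Per3 lay within it.

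Control 1 was also the highest array for some related genes. Tef, a D-box factor of the same family as Dbp, had 25921 on Control 1 against 16737.5 to 20909 on the other 8 arrays, and Bhlhe40, an E-box repressor, had 2718 against 1272 to 2650.5 on the others. Tef and Cirbp, which encodes a cold-inducible RNA-binding protein and had 3161 against 2169 to 2817, were named after their values were seen. Control 1 was the highest array for 4 of 6 partner transcription factors, 3 of 6 clock kinases and ligases, 3 of 5 output genes, 2 of 10 clock genes, 0 of 10 activity-regulated genes and 0 of 6 glucocorticoid-responsive genes, and for 16.9% of all genes tested. It was the lowest for 2 of 10 activity-regulated genes, 1 of 6 glucocorticoid-responsive genes and 15% of all genes tested. MPTP 2 was the lowest array for 4 of 6 partner factors, 4 of 6 kinases and ligases, 0 of 5 output genes and 5 of 10 activity-regulated genes. It was the lowest for 0 of 6 glucocorticoid-responsive genes and for 8.86% of all genes tested. The array of Control 1 had a Gapdh 3' to 5' ratio of 0.841 among a range of 0.732 to 0.858. The same array had the highest summed signal of the choroid plexus markers, 68813 against 4385 to 53138 on the other arrays. Most of that sum was Ttr, at 65370.4. Kl and Aqp1, too dim to test, were also highest on Control 1, at 1559.8 and 695.4. Folr1 had 1187.2 there, below 1364 on METH 1 and 1470.4 on METH 2. The sum of Control 1 over the 4 annotated cortical markers was also the highest, 12581 against 8663 to 11215. Of these markers Neurod6 and Tbr1, too dim to test, were highest on Control 1, at 1088.6 against 159.8 to 569.5 and at 850.5 against 109 to 477.3. Neurod2, which was tested, was also highest there, at 1861.3 against 365.8 to 1461.3. The brightest, Lamp5, had 8780.3 there, below 9265.7 on Control 2 and 9146.9 on Control 3. The part of these cells, and of the hour of dissection, in the clock gene signals of Control 1 was not tested.

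**Figure D3:**
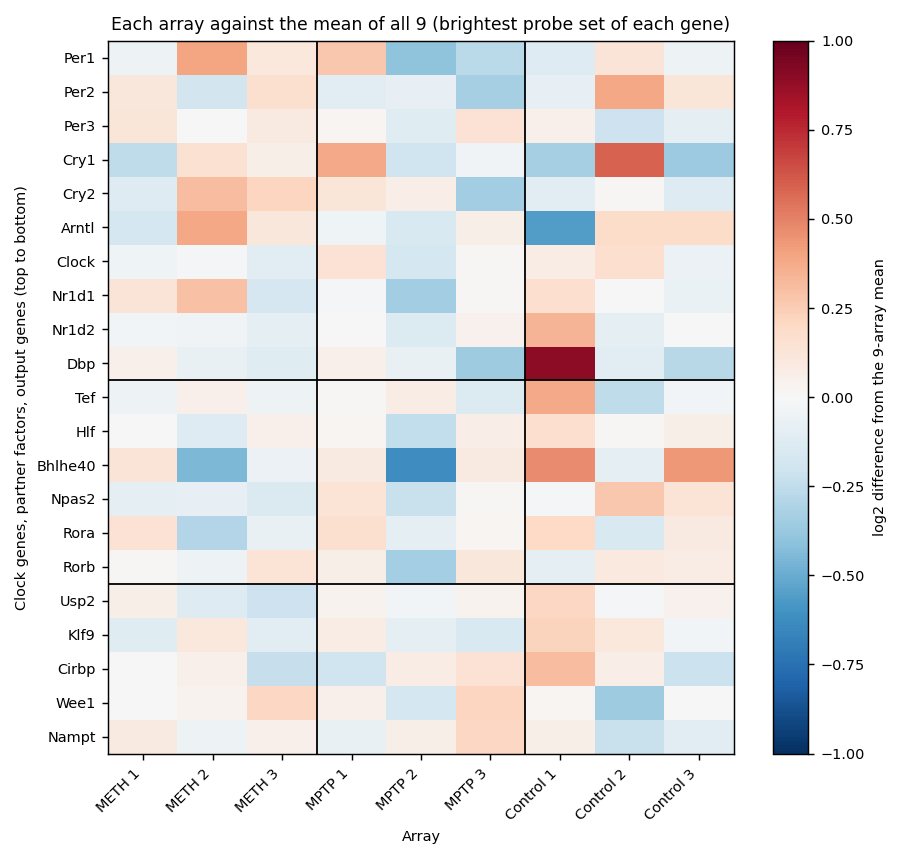
Log2 difference of each array from the mean of all 9 arrays, for the brightest probe set of 10 clock genes (top), 6 partner transcription factors (middle) and 5 output genes (bottom), with METH, MPTP and Control arrays from left to right; red is higher and blue lower. Control 1 shows the darkest cell, in Dbp, and Tef, Bhlhe40, Nr1d2, Usp2, Klf9 and Cirbp are among the others above the mean there. Of the clock genes Arntl, Cry1, Per1, Cry2 and Per2 lie below the mean on that array, Arntl the furthest. The partner factors Rorb and Npas2 also lie below it.

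Dbp and Arntl peak at opposite times of day in mouse tissues, so their relation over the 9 arrays was examined with that of the other clock genes. Of the 9 relations with Dbp, the largest were those of Arntl and Nr1d2. Arntl had a Pearson r of -0.803 (exact permutation p = 0.0204, adjusted p = 0.184 over the 9 relations) and a Spearman rho of -0.667 (p = 0.0589, adjusted 0.53). Nr1d2 had an r of 0.794 (exact permutation p = 0.0924, adjusted p = 0.416) and a rho of 0.0667 (p = 0.88). The other 7 genes had r between -0.256 and 0.352, with Nr1d1 the highest. With the 2 arrays farthest from the median of Dbp left out, which were Control 1 and MPTP 3, r was -0.535 for Arntl and 0.0205 for Nr1d2 over 7 arrays. Without Control 1 alone r was -0.378 for Arntl and -0.399 for Nr1d2 over 8 arrays. The relation with Nr1d2 therefore rested on Control 1, and that with Arntl kept its sign at a smaller size. With the second Dbp probe set in place of the brighter, the largest r were 0.703 for Nr1d2, 0.643 for Nr1d1, 0.552 for Clock and -0.481 for Arntl (exact permutation p = 0.064, 0.0652, 0.122 and 0.194). Their rho were 0.25, 0.833, 0.65 and -0.133, and the lowest adjusted p over the 9 relations was 0.293 for r and 0.0744 for rho (Nr1d1).

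**Figure D4:**
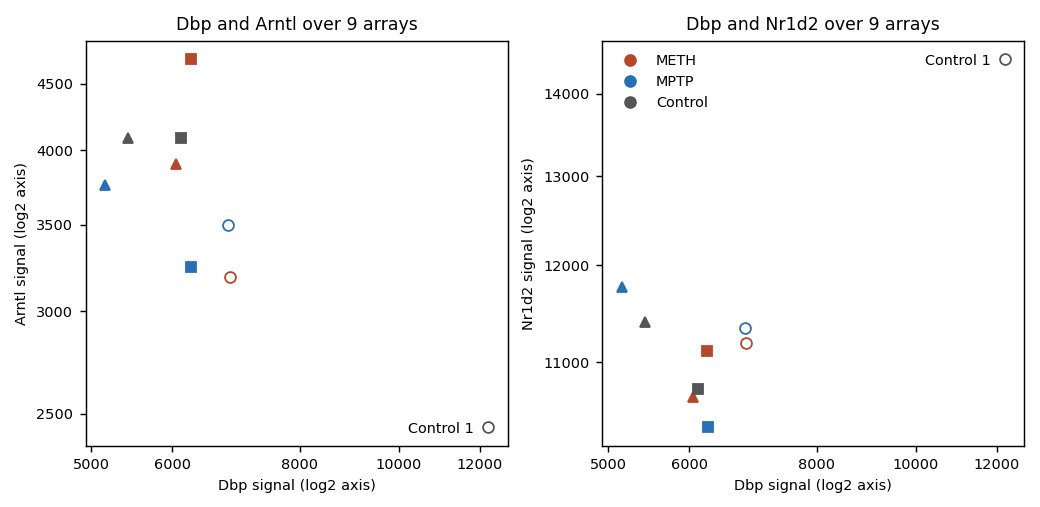
Signals of Arntl (left) and Nr1d2 (right) against Dbp on the 9 arrays, all axes on a log2 scale, 1 point an array; colour gives the group and shape the mouse (circle 1, square 2, triangle 3). Control 1 lies apart from the other 8 arrays in both panels, and r without it is -0.378 for Arntl and -0.399 for Nr1d2.

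The genes most like Dbp over the 9 arrays, among 7963 others, were Tox (r = 0.946), Orc3 (0.94), Hnrnpdl (0.934), Uggt2 (0.925) and Cd2bp2 (0.904), with Nr1d2 at rank 75 and Arntl at rank 7874. Without Control 1 the 5 had r of 0.571 to 0.733. Those most like Arntl were Hrh3 (0.939), Eif4g2 (0.932), Sf1 (0.928), Plcb1 (0.924) and Arid3b (0.922), and these had r of 0.801 to 0.843 without Control 1. These are descriptions over 9 arrays that share whatever sets 1 array apart.

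Genes that work with the clock were read in the same way, and 0 passed the test in either toxin comparison in any of the 5 lists. Of 6 partner transcription factors tested, 1 was higher and 5 were lower in METH than in Control (median -0.11), and 0 were higher and 6 lower in MPTP (median -0.11). Without Control 1 the counts higher were 1 of 6 for METH and 2 of 6 for MPTP, and without MPTP 2 the MPTP count was also 2 of 6. Npas2, which can stand in for CLOCK in the forebrain, had 3455, 3465 and 3327 in METH mice, 4042, 3142 and 3692 in MPTP mice and 3639.6, 4415 and 4026 in Control mice. Its METH arrays all lay below its Control arrays, with a log2 difference of -0.23 ± 0.12 (adjusted p = 0.61), and MPTP overlapped both. Bhlhe40 had a log2 difference of -0.40 ± 0.23 for METH and -0.42 ± 0.23 for MPTP (adjusted p = 0.666 and 0.875). Of 6 kinases and ubiquitin ligases that set the stability of PER and CRY, 0 were higher and 6 lower with each toxin (medians -0.11 for METH and -0.12 for MPTP), or 0 of 6 for METH and 1 of 6 for MPTP without Control 1 and 2 of 6 for MPTP without MPTP 2. Quantile normalization and cyclic loess each gave 1 of 6 higher for MPTP. Gsk3b, a kinase that phosphorylates clock proteins, had the smallest p of these for MPTP, a log2 difference of -0.37 ± 0.16 (adjusted p = 0.875), and -0.24 ± 0.16 for METH. Control 1 was the highest array for Bhlhe40 and Gsk3b. Of 5 output genes, 2 were higher and 3 lower in both comparisons (medians -0.11 for METH and -0.05 for MPTP). Without Control 1 both medians turned, to 0.02 for METH and 0.08 for MPTP, with 3 of 5 higher, and without MPTP 1 the MPTP median was 0.06. The toxin comparisons share the Control arrays.

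Genes that answer to neuronal activity and to glucocorticoids were read because both inputs can also switch on Per1. Of 10 activity-regulated genes tested, 4 were higher and 6 lower in METH (median -0.04), and 2 were higher and 8 lower in MPTP (median -0.37). The METH count rested on single arrays, with 0 of 10 higher without Control 1, 1 of 10 without METH 1, and 6 of 10 without METH 2 and without Control 3 (medians 0.0052 and 0.06). With arrays centred on their medians it was 0 of 10, beside 2806 higher and 5158 lower of all 7964 genes tested. The MPTP median stayed between -0.46 and -0.23 when each array was left out. Dusp1, a MAP kinase phosphatase, had 5287, 4928 and 6268 in METH mice, 5051, 4794 and 4770 in MPTP mice and 6638, 7504 and 7505 in Control mice, so both toxin groups lay below Control. Its log2 difference was -0.40 ± 0.11 for METH and -0.56 ± 0.11 for MPTP (adjusted p = 0.451 and 0.594). Fos, an immediate early transcription factor, had 5127, 4597 and 5007 in METH mice, 4057, 4145 and 3909 in MPTP mice and 4679, 6583 and 6152 in Control mice, with a log2 difference of -0.51 ± 0.13 for MPTP (adjusted p = 0.766). Its MPTP arrays lay below all Control arrays. Of 6 glucocorticoid-responsive genes tested, 4 were higher and 2 lower with each toxin (medians 0.09 for METH and 0.06 for MPTP), but 2 of 6 for METH without METH 2 (median -0.08) and 2 of 6 for MPTP without MPTP 3 (median -0.03). Per1 itself overlapped between all groups, as given above.

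Among markers of cells in or near the striatum, microglial markers were higher for 6 of 6 genes with each toxin (medians 0.26 for METH and 0.14 for MPTP) with 0 called, and astrocyte markers for 5 of 6 and 4 of 6, with Gfap called. Higher in METH and MPTP were 2 and 1 of 7 spiny neuron, 2 and 5 of 5 oligodendrocyte, 2 and 3 of 5 endothelial, 1 and 0 of 2 choroid plexus and 0 and 0 of 2 cortical markers tested, and the 1 blood marker tested was higher with both, none of these called. The summed microglial signal was 41700 to 43286 in METH, 38749.6 to 44097 in MPTP and 34154.5 to 40120.6 in Control, and the summed astrocyte signal was 44185 to 52497 in METH, 48574 to 54184 in MPTP and 40536 to 44294 in Control. The summed cortical signal was 8663 to 10990 in METH, 9611 to 10431 in MPTP and 10570 to 12581 in Control. This sum was lower in MPTP than in Control, and METH overlapped Control. Most of it was Lamp5 on every array, at 7693.4 to 8592.7 in METH, 8273.5 to 8716.1 in MPTP and 8780.3 to 9265.7 in Control. Neurod6 and Tbr1 were too dim to test, so the sum says little about cortical cells as a whole. Summed signals of spiny neuron, oligodendrocyte, choroid plexus, endothelial and blood markers overlapped between each toxin group and Control. Their part in the clock gene signals was not tested.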

How the data were processed

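The deposited table holds linear intensity values of 22690 probe sets on 9 arrays, and RMA is named, with no version, in the submitters' processing notes; RMA usually gives log values, so the summary method is unsettled. The authors' intensity values had a trimmed mean of 2501 on each array (2% left out at each end), were not centred by gene, and came without detection calls. The annotation that matched belongs to a smaller array design than the submitters name. In GEO's platform annotation 20380 probe sets had 1 symbol, 691 several and 1555 none listed, and 64 were array controls.

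Values were taken to log2 with no pseudocount. Those whose mean over the arrays fell below the 40th percentile (log2 9.53, a signal of 741) were dropped, and 13584 remained. Groups were fitted in 1 limma model (limma 3.58.1, R 4.3.3; 6 residual and 3.94 prior degrees of freedom), two-sided, with Benjamini-Hochberg adjustment over the probe sets tested, a procedure tested on simulated data. Correlations used Python 3.11.15 with exact permutation. An exact permutation test of 3 arrays against 3 has a smallest p of 0.1 and was not run between groups. The number of arrays limits precision, and p-values measure the spread between mice, which the labels call biological replicates.

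Counts by gene use the probe set of highest mean. Every clock probe set is named, with up to 4 genes of smallest p in each related list, Gfap, and the 5 genes most like Dbp and Arntl; exceptions are said where they occur. The members, the 5 lists of related genes and the 9 marker lists were chosen with earlier results of these data known. Alternatives changed the filter, normalization, offset, feature, arrays, weights, variance prior and block. Same-numbered arrays of different groups had deviations correlated at -0.132 to 0.0543, which shows no pairing by number but cannot exclude one. Promoter windows are RefSeq's, of GRCm38.p6.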

Additional observations from a re-analysis of the deposited data

How the results depend on the processing

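The count of clock probe sets past the test was 0 in all 79 recounts over 20 alternative settings, 9 of which leave out 1 array, and of 822 recomputed log2 differences of clock probe sets the lowest adjusted p was 0.317 (Per2 1417603_at, METH against Control, with array weights). Over all probe sets, the METH against Control count of 2 became 1 with no filter, 0 with arrays centred on their medians, 1 with 1 probe set a gene and 1 with only the 2 groups in the fit, 3 with eBayes trend and robust, and 0 to 1 on leaving out each array. The MPTP against Control count of 2 became 0 with no filter, 0 with median centring, 1 with 1 probe set a gene, 0 with only the 2 groups and 1 with array weights, and 0 on leaving out any array. The count for any difference, 2, became 0 with no filter, 0 with median centring, 1 with 1 probe set a gene and 0 on leaving out any array. METH against MPTP stayed at 0 under every alternative run. The cause of these changes was not tested, and some of the fits held fewer features or arrays. The replicate number showed no pairing here, which does not exclude one. Of the same-numbered pairs 0 of 9 correlated above 0.1, against -0.119 to 0.121 for differently numbered arrays. With the number as a block the counts over all probe sets were 0 in METH against Control, 0 in MPTP against Control and 0 for any difference. Taken as deviations from group means, Arntl and Dbp had a Pearson r of -0.859 (permutation p = 0.0028, adjusted p = 0.0252), under the threshold. Spearman's rho was -0.767 (permutation p = 0.0214, adjusted p = 0.193) and did not pass. Deviations from 1 group mean depend on each other, which the permutation over all 9 arrays ignored. These p-values are therefore not exact, and no conclusion is drawn from them. Without Control 1, and with no group means taken off, the relation did not pass (r = -0.378). The alternative without Control 1, the second Dbp probe set, the direction counts of clock and related genes without each array and the relations between probe sets of a gene were chosen after seeing the data. Whether a dim probe set is above background cannot be read without detection calls, and 2 of 3 Per3 probe sets were too dim to test.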
